A study of Homo sapiens with 9 samples.

Results

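The 10 genes described here are 3 NOTCH receptors (NOTCH1, NOTCH2 and NOTCH3), 3 nuclear cofactors of NOTCH (RBPJ, MAML1 and MAML2) and 4 direct NOTCH targets (HES1, DTX1, NRARP and SHQ1). They were chosen by symbol from the 58096 gene IDs counted in the study, and 9 of the 10 passed the filter on low counts. NRARP did not pass it. The cell line ALL-SIL, derived from T-cell acute lymphoblastic leukaemia (T-ALL), was electroporated with a scrambled siRNA at 400 nM or with siRNA s46 or s47, both directed against the homeobox transcription factor TLX1, and total RNA was sequenced after 24 h. Each of the 3 groups had 3 libraries. All groups were the same line and all received an siRNA, so no untreated cells enter these comparisons. The labels do not give the dose of s46 and s47. They also do not say whether replicates were separate cultures. The p-values thus reflect only how far these libraries spread, and that spread may be technical.

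NOTCH receptors are cleaved after they bind a ligand on a neighbouring cell, last by gamma-secretase, which frees the intracellular domain. In the nucleus this domain joins the DNA-binding protein RBPJ and a Mastermind-like (MAML) coactivator, and target genes such as HES1 and DTX1 are transcribed. The pathway directs early T-cell development, and NOTCH1 is often activated by mutation in T-ALL.

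Sense gene reads numbered 21134650 to 33393740 per library. TLX1, the targeted gene, was at 171 to 198 CPM (read counts scaled by library size and the TMM factor) in the scrambled libraries and at 63.5 to 87.3 CPM in the 6 libraries with a TLX1 siRNA, with no overlap (log2 fold change -1.34, edgeR adjusted p 0.000394). Of 21 T-lineage markers, 19 exceeded 1 CPM in every library. TRAC and PTCRA did not reach 1 CPM in any. None of 5 myeloid or 5 erythroid markers reached 1 CPM. Of 5 B-lineage markers, CD79A and CD79B exceeded it in every library. Of 5 genes listed as stromal and epithelial, COL1A1, COL1A2, EPCAM and KRT18 did not reach it in any library. PECAM1, which stood in the same list but is not specific to such cells, was at 87.8 to 126 CPM. Scrambled replicate 1 stood apart from the other libraries. It had 14.5% multimapping reads against 6.36% to 7.34% elsewhere, and 39.9% of its reads fell in genes against 52.7% to 59.9%. Its log2 CPM correlated across genes with the other scrambled libraries at r = 0.964 and 0.973, while these correlated with each other at 0.988. For the members and the pathway genes named with a value whose log2 fold change it moved by over 1.5 times, the value without it is also given; none of these values passed the test. In bulk RNA a lower level in each cell cannot be told apart from fewer cells that express the gene.

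SHQ1 was higher with both TLX1 siRNAs, and it was the only member among the 9 tested that passed the test. Across all 16072 genes tested, 0.566% passed in either direction, 0.411% higher and 0.156% lower (edgeR, mean of both siRNAs against scrambled, adjusted p under 0.05). NOTCH1, HES1 and DTX1 had group means that differed by less than the SD between replicates. NOTCH2, MAML1 and MAML2 had lower means with both siRNAs and unadjusted p-values under 0.05, as 17.8% of all genes had, but did not pass after adjustment. Set against scrambled alone, s46 gave 0 calls among the 9 genes (edgeR; 0.174% of all genes called) and s47 gave 0 (0.33% called). At an unadjusted p under 0.05, s46 had 4 of the 9 genes (11.9% of all genes) and s47 had 3 (12.3% of all genes). DESeq2 called SHQ1 with s46 and with s47, where it called 1.24% and 1.27% of all genes. limma-voom called 0 members with either, and 0.156% and 0.255% of all genes. Both siRNAs were compared with the same scrambled libraries, so their values are printed side by side and are not independent of each other.

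**Figure D1:**
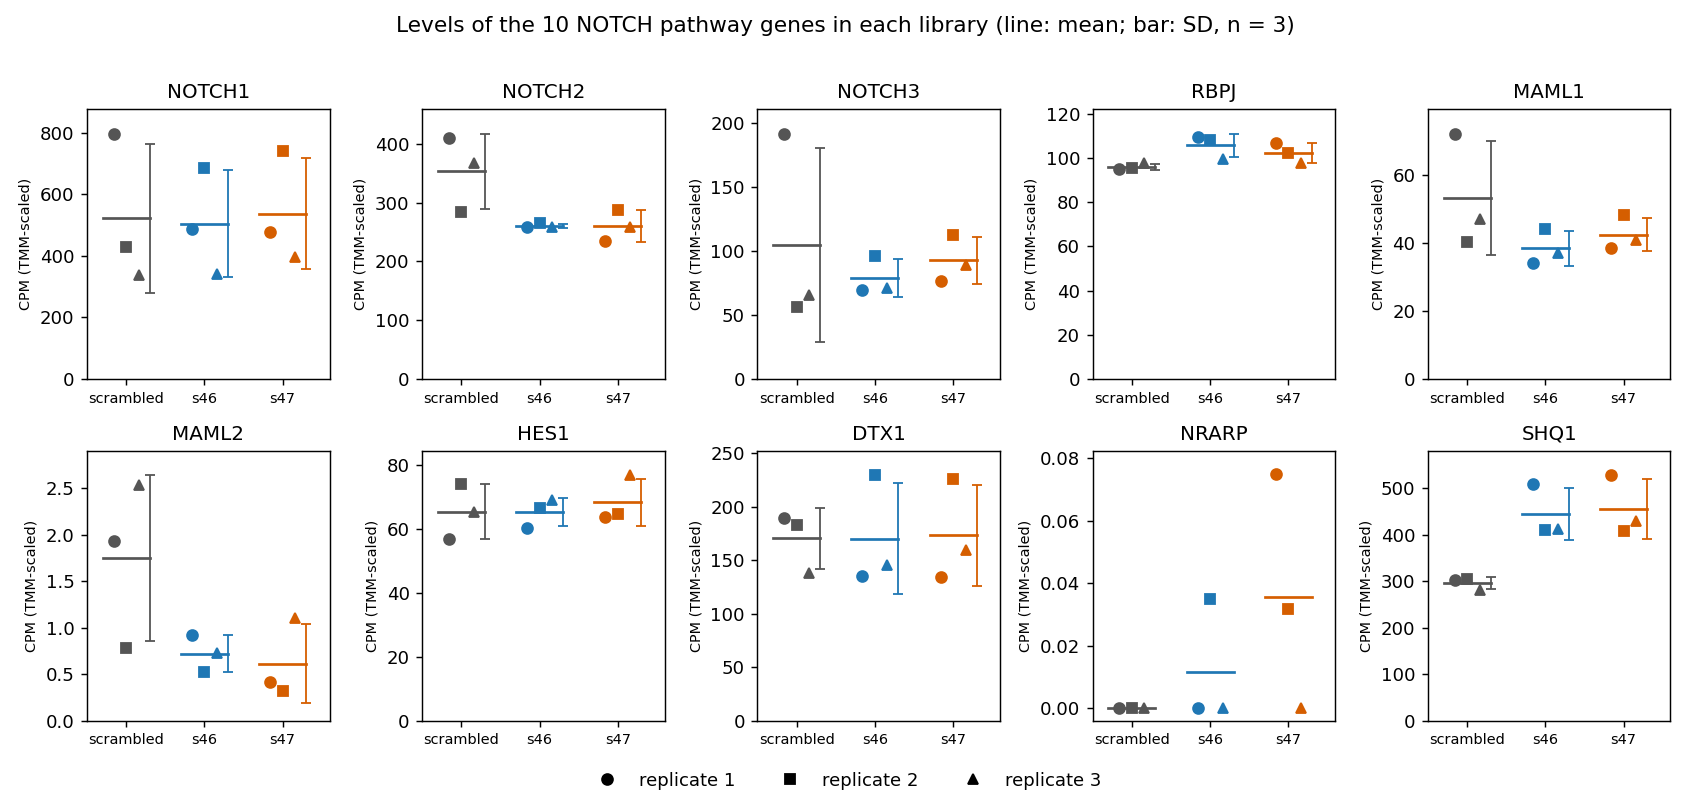
CPM (TMM-scaled) of the 10 genes in each of the 9 libraries, on linear axes. Points are libraries, horizontal lines are group means and vertical bars are SD (n = 3), left out for NRARP, where no library had more than 2 reads; SHQ1 is the gene in which all 6 libraries with a TLX1 siRNA lie above all 3 scrambled libraries, and the scrambled point that stands highest for NOTCH1, NOTCH2, NOTCH3 and MAML1 is replicate 1.

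The receptors are described first. NOTCH1 (ENSG00000148400.9, chromosome 9, 136494433 to 136545786, minus strand, GRCh38) encodes the receptor most often mutated in T-ALL. It was at 797, 430.2 and 339 CPM in scrambled replicates 1, 2 and 3, at 487, 687 and 343 CPM with s46, and at 477, 740.4 and 395 CPM with s47. The highest library was a scrambled one and so was the lowest, so the siRNA libraries lay inside the scrambled range. Within both siRNA groups, replicate 2 was the highest. The log2 fold change was -0.0030 ± 0.31 (SE, 95% interval -0.70 to 0.69, edgeR adjusted p 0.996). That interval is not adjusted for the number of genes tested. With this spread, differences inside it and some beyond it could go uncalled. Without scrambled replicate 1 the log2 fold change was 0.44 and was not called. The value was -0.05 with s46 and 0.04 with s47.

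NOTCH2 (ENSG00000134250.18, chromosome 1, 119911553 to 120069626, minus strand), a receptor that acts in B-lineage and other haematopoietic cells, was at 409, 283.5 and 366.5 CPM in the scrambled libraries. It was at 259, 265 and 258.5 CPM with s46, and at 235, 288 and 259 CPM with s47. All 3 s46 libraries were below all scrambled libraries, as in 7.22% of all genes tested. With s47, replicate 2 lay above the lowest scrambled library. Its log2 fold change was -0.44 ± 0.12 (SE; 95% interval -0.70 to -0.18), with an unadjusted p of 0.00308 and an adjusted p of 0.142 (edgeR), so NOTCH2 was not called. It was -0.44 with each siRNA. Without scrambled replicate 2, the lowest scrambled library, the value was -0.57 and passed (edgeR adjusted p 0.0179), in a fit that called 10.1% of all genes. Without scrambled replicate 1 it was -0.32 (adjusted p 0.339), and with DESeq2, which called 2.84% of all genes, it was -0.43 (adjusted p 0.0395). NOTCH2NLA, a partial copy of NOTCH2, shares near-identical sequence with it, so reads common to both could have been set aside as multimapping and the levels of both are uncertain.

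NOTCH3 (ENSG00000074181.8, chromosome 19, 15159038 to 15200981, minus strand), a receptor that is itself a NOTCH1 target in T-ALL, was at 192, 56.1 and 66.0 CPM with scrambled siRNA. It was at 70.0, 96.3 and 71.2 CPM with s46, and at 76.6, 112.5 and 89.5 CPM with s47. The siRNA libraries fell between scrambled replicate 3 and scrambled replicate 1. The log2 fold change was -0.29 ± 0.36 (SE; 95% interval -1.09 to 0.52; edgeR adjusted p 0.692), and it was 0.49 without scrambled replicate 1, also not called. Its direction therefore depended on that library. Opposite-strand reads were 0.14% of the stranded reads at NOTCH1, 0.10% at NOTCH2 and 0.070% at NOTCH3.

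Beside the NOTCH1 start lies NALT1, a long non-coding RNA on the opposite strand, which was looked at after its values were seen. It was at 2.91, 1.96 and 2.24 CPM with scrambled siRNA, at 3.58, 3.998 and 3.44 CPM with s46, and at 3.52, 3.34 and 4.06 CPM with s47. All 6 siRNA libraries were above all 3 scrambled libraries, as in 4.47% of all genes tested. Its log2 fold change of 0.63 ± 0.20 (SE) was not called (edgeR adjusted p 0.193).

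Of the nuclear cofactors, RBPJ (ENSG00000168214.20, chromosome 4, 26163455 to 26435131, plus strand) encodes the protein that places the complex on DNA. It was at 95.1, 95.5 and 97.7 CPM with scrambled siRNA, at 109, 108 and 99.7 CPM with s46, and at 107, 102 and 97.6 CPM with s47. RBPJ was the steadiest of the tested members within groups, with a within-group SD of 0.057 on the log2 CPM scale, and only 0.60% of all tested genes had a smaller one. All 3 s46 libraries were above the scrambled range, as in 7.45% of all genes tested, and s47 replicate 3 was inside it. The difference was small, at a log2 fold change of 0.11 ± 0.09 (SE; 95% interval -0.08 to 0.31; edgeR adjusted p 0.51).

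MAML1 (ENSG00000161021.11, chromosome 5, 179732850 to 179777286, plus strand), a coactivator that bridges the NOTCH complex to histone acetyltransferases, was at 72.3, 40.2 and 47.2 CPM with scrambled siRNA. It was at 34.3, 44.3 and 37.0 CPM with s46, and at 38.6, 48.2 and 40.9 CPM with s47. The ranges overlapped, and 3 of the 6 siRNA libraries were below all scrambled libraries. The log2 fold change was -0.39 ± 0.17 (SE; 95% interval -0.75 to -0.03; unadjusted p 0.0346, edgeR adjusted p 0.256). Leaving out scrambled replicate 1 gave -0.11. Leaving out scrambled replicate 2 gave -0.55, which passed (edgeR adjusted p 0.0485), in a fit that called 10.1% of all genes.

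MAML2 (ENSG00000184384.13, chromosome 11, 95976598 to 96343180, minus strand), a related coactivator, was near the lower limit of what was tested. Its levels were 1.93, 0.78 and 2.53 CPM with scrambled siRNA, 0.92, 0.52 and 0.72 CPM with s46, and 0.41, 0.32 and 1.098 CPM with s47. Scrambled replicate 2 lay within the siRNA range, and 4 of the 6 siRNA libraries were below it. MAML2 had a log2 fold change of -1.39 ± 0.43 (SE; 95% interval -2.31 to -0.46; unadjusted p 0.00646, edgeR adjusted p 0.182). Without scrambled replicate 2 it was -1.74 and passed (edgeR adjusted p 0.0278), in a fit that called 10.1% of all genes. With no filter on low counts, where 2.8% of all genes were called, it was -1.36 and passed (edgeR adjusted p 0.00735). Without scrambled replicate 3, the highest library, it was -1.001 (adjusted p 0.361), without scrambled replicate 1 it was -1.31 (adjusted p 0.391), and for the mean of both siRNAs it passed under 2 of 17 alternatives.

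**Figure D2:**
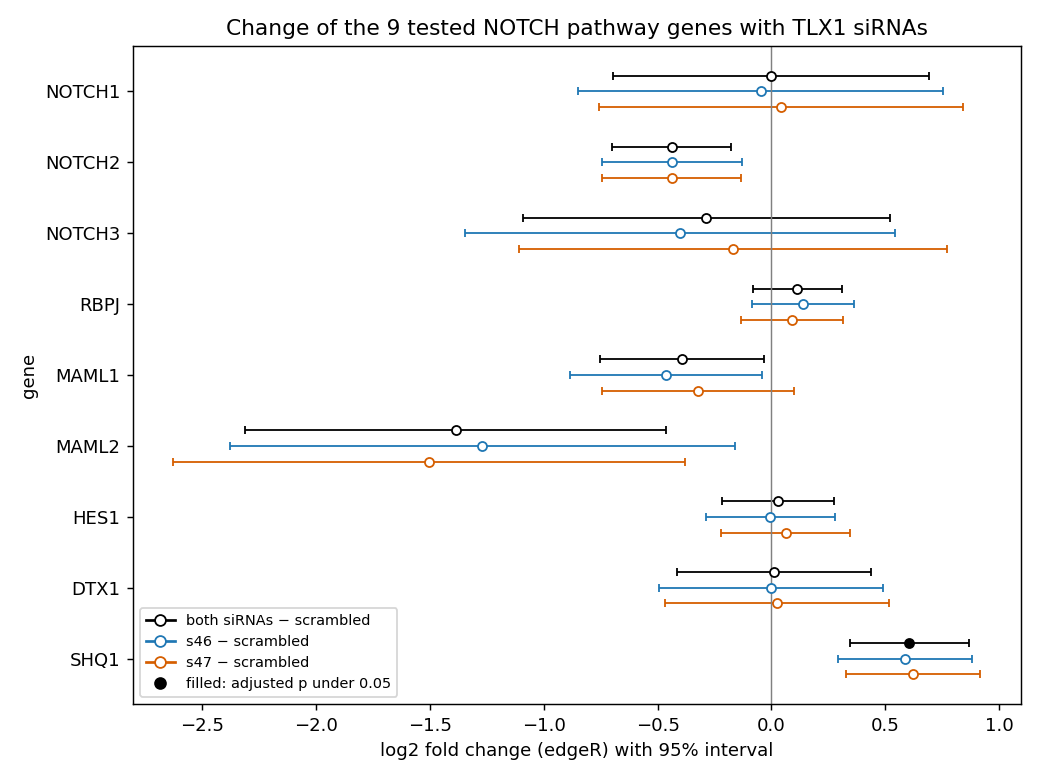
Log2 fold changes of the 9 tested genes with 95% intervals, for the mean of both siRNAs, for s46 and for s47, each against the same 3 scrambled libraries. Filled points passed an edgeR adjusted p of 0.05; SHQ1 for the mean of both siRNAs is the only filled point, and the intervals of NOTCH1, NOTCH3, RBPJ, HES1 and DTX1 include 0 in all 3 comparisons.

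For the targets, the promoter sequence shows what the annotated starts hold of the core word TGGGAA, which RBPJ binds. The stretches below run from 110 to 31 bases upstream of the start (RefSeq, GRCh38.p14), with TGGGAA in capitals. They were chosen to set HES1, which was expressed at a steady level, beside SHQ1, the member that rose, NRARP, which was near 0, and the related genes HES4 and HES5, looked at after their values were seen.
HES1, chr3:194136038-194136117, plus strand: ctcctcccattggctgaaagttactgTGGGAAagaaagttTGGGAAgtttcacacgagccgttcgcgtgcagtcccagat
HES4, chr1:1000128-1000207, minus strand: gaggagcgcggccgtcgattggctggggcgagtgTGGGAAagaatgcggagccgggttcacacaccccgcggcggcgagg
HES5, chr1:2530294-2530373, minus strand: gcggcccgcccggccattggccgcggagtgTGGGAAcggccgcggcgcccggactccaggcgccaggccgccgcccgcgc
NRARP, chr9:137302302-137302381, minus strand: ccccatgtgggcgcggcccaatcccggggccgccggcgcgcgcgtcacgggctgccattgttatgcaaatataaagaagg
SHQ1, chr3:72848476-72848555, minus strand: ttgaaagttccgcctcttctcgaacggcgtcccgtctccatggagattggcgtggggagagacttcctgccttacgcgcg

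In HES1 the word occurs in 2 copies, which begin 84 and 70 bases upstream of the start with 8 bases between them. HES4 has 1 copy at 76 bases and HES5 has 1 at 80 bases in these stretches. NRARP and SHQ1 have none here. The word or its reverse complement TTCCCA, searched on both strands, where copies cannot overlap, occurs in 24.0% of all 35116 RefSeq promoter windows of 300 bases, and 3.80% hold 2 or more. In windows of that length (250 bases before the start to 50 after), NOTCH1, NOTCH2, NOTCH3, MAML1, MAML2, NRARP and SHQ1 had no copy, and 1 of the 5 annotated RBPJ starts had 2. HES1, HES5, HEY2 and HEYL also had 2 in such windows, HES4 had 1, and HES2, HES6 and HES7 had none. These HES and HEY windows were looked at after the values were seen. No HEY2 or HEYL read was counted in any library, so 2 copies were not particular to the expressed HES1. The RefSeq start of SHQ1, at 72848445, lies inside the gene model used for its coordinates, which extends to 72861914, so its window is not upstream of that whole model. A match is a description of the letters and not of binding.

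HES1 (ENSG00000114315.3, chromosome 3, 194136145 to 194138732, plus strand) encodes a repressor of the basic helix-loop-helix family and is the textbook NOTCH target. It was at 57.0, 74.1 and 65.4 CPM with scrambled siRNA, at 60.5, 66.5 and 69.0 CPM with s46, and at 63.8, 64.6 and 76.9 CPM with s47. The groups overlapped throughout, with s47 replicate 3 highest and scrambled replicate 1 lowest. The log2 fold change was 0.03 ± 0.11 (SE; 95% interval -0.22 to 0.27; edgeR adjusted p 0.911), a narrower interval than that of NOTCH1. Without scrambled replicate 1 it was -0.06.

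DTX1 (ENSG00000135144.7, chromosome 12, 113056709 to 113098028, plus strand), an E3 ubiquitin ligase that regulates NOTCH signalling, was at 189.6, 183 and 138 CPM with scrambled siRNA. It was at 135, 229.5 and 145 CPM with s46, and at 134, 226 and 159 CPM with s47. As for NOTCH1, replicate 2 was the highest library within s46 and within s47, and it was above all scrambled libraries in both groups. DTX1 had a log2 fold change of 0.01 ± 0.20 (SE; 95% interval -0.41 to 0.44; edgeR adjusted p 0.982), and it was 0.10 without scrambled replicate 1.

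NRARP (ENSG00000198435.3, chromosome 9, 137300482 to 137302251, minus strand), an ankyrin-repeat protein that limits NOTCH signalling, was almost absent. No read was counted in the 3 scrambled libraries, 1 read was counted in s46 replicate 2, 2 reads in s47 replicate 1 and 1 read in s47 replicate 2. The other libraries had 0. A count of 0 allows up to 3 counts, which is 0.0905 to 0.134 CPM in these libraries and covers counting error only. All values were below 3 counts, so no fold change is given.

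SHQ1 (ENSG00000144736.13, chromosome 3, 72749277 to 72861914, minus strand) encodes an assembly factor for H/ACA ribonucleoproteins, the particles that guide pseudouridylation of RNA and form part of telomerase, and is a direct NOTCH1 target in T-ALL. It was at 302, 304 and 282 CPM with scrambled siRNA, at 509.6, 411 and 413 CPM with s46, and at 528, 408.5 and 429 CPM with s47. All 6 siRNA libraries were above all 3 scrambled libraries, as in 4.47% of all genes tested, and replicate 1 was the highest in both siRNA groups. SHQ1 rose by a log2 fold change of 0.61 ± 0.12 (SE; 95% interval 0.34 to 0.87; edgeR adjusted p 0.0441), a 1.52-fold difference that ranked 88 by p-value among 16072 genes. It was 0.59 with s46 (adjusted p 0.134) and 0.62 with s47 (adjusted p 0.103), neither of which passed alone. The siRNAs differed by -0.03 (s46 minus s47; 95% interval -0.33 to 0.26; edgeR adjusted p 1).

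The call for SHQ1 was close to the threshold, while its size was steady. Its log2 fold change with both siRNAs averaged stayed between 0.54 and 0.65 under every alternative run. It did not pass with upper-quartile scaling (edgeR adjusted p 0.0563) or with library totals (0.0612). Among fits without 1 library it did not pass without scrambled replicate 3 (0.159), s46 replicates 1, 2 and 3 (0.107, 0.0724 and 0.0974) or s47 replicates 1, 2 and 3 (0.107, 0.0596 and 0.107). It passed in edgeR without scrambled replicate 1 (0.0332, with 109 of 16365 genes called) and without scrambled replicate 2 (0.0237, with 10.1% of all genes called). It also passed with limma-voom (0.0374, with 0.604% of all genes called) and with DESeq2 (0.000327, with 2.84% called). The main fit called 0.566%. Reads on the opposite strand of SHQ1 were 0.078% of its stranded reads and numbered 4 to 20 per library.

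**Figure D3:**
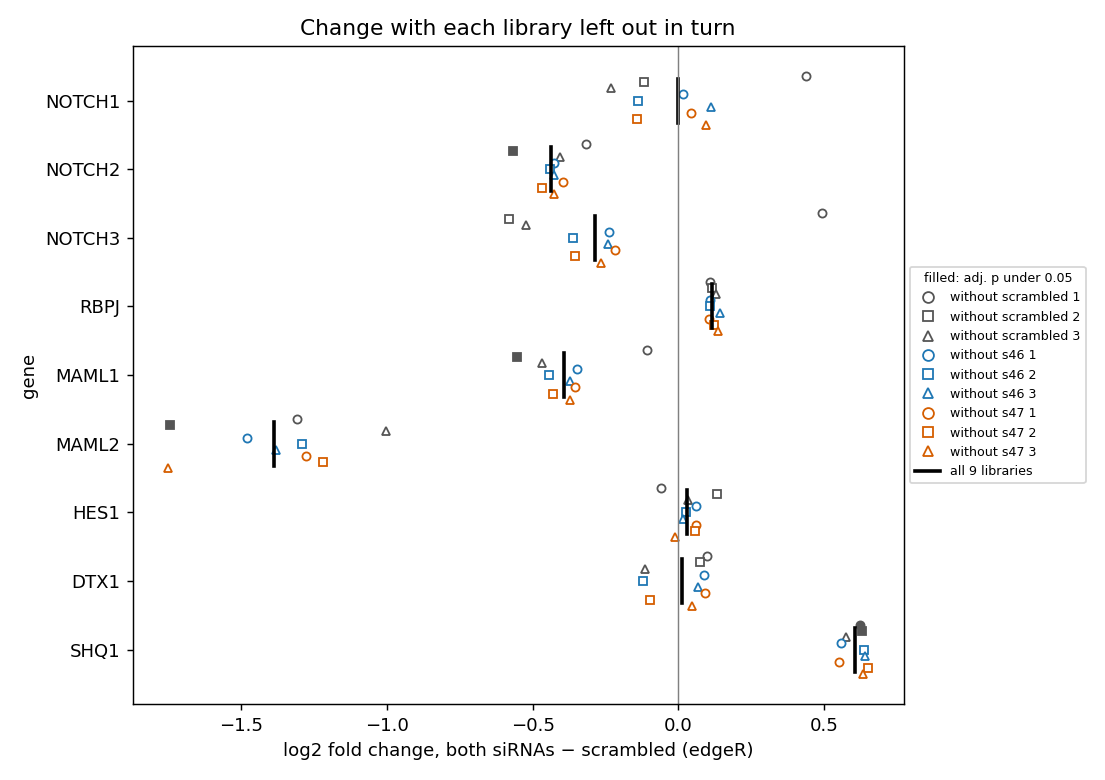
Log2 fold change of each tested gene with both siRNAs averaged, against scrambled, refitted with each of the 9 libraries left out. Colour and shape show which library was left out, black bars show the fit with all 9, and filled points passed an edgeR adjusted p of 0.05; NOTCH1 and NOTCH3 move to 0.44 and 0.49 without scrambled replicate 1, whereas SHQ1 stays between 0.55 and 0.65.

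The other genes of the H/ACA particle were looked at after the SHQ1 values were seen. DKC1, the pseudouridine synthase (0.25), NHP2 (0.34), GAR1 (0.25) and NOP10 (0.13), all core subunits, had log2 fold changes above 0, and the assembly factor NAF1 was at -0.35. None of the 5 passed (edgeR; lowest adjusted p 0.242), and 1 had an unadjusted p under 0.05. Within 500 kb of SHQ1, 6 of 20 other annotated genes were tested and 0 were called, with 0 at an unadjusted p under 0.05 and a median log2 fold change of 0.0026. Within 500 kb of NOTCH1, 34 of 71 were tested and 0 were called, with 5 at an unadjusted p under 0.05 (17.8% over all genes) and a median of -0.17.

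Per length, SHQ1 and NOTCH1 had the highest levels of the 10 genes with scrambled siRNA. In RPKM, which is CPM divided by the exon length in kilobases, the scrambled means were 50.6 ± 2.10 (SD, n = 3) for SHQ1, 50.3 ± 23.4 for NOTCH1, 38.8 ± 6.42 for DTX1 and 31.8 ± 4.13 for HES1. NOTCH2 followed at 21.0 ± 3.81, NOTCH3 at 11.1 ± 8.06, RBPJ at 10.4 ± 0.15, MAML1 at 8.96 ± 2.84, MAML2 at 0.25 ± 0.13 and NRARP at 0. The ranges of neighbours in this order overlapped, except between HES1 and NOTCH2, between MAML1 and MAML2, and between MAML2 and NRARP. SHQ1 was the highest with s46 (76.1 ± 9.65 RPKM) and with s47 (78.0 ± 10.97 RPKM). With s46 its range no longer overlapped that of NOTCH1 (33.0 to 66.2 RPKM), whereas with s47 it did (38.1 to 71.3 RPKM).

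The members also differed in how much replicates of 1 group varied. Within-group SDs on the log2 CPM scale were 0.75 for MAML2, 0.60 for NOTCH3 and 0.54 for NOTCH1, at the 92.6, 86.5 and 83.0 percentiles of all tested genes. They were 0.16 for SHQ1, 0.15 for HES1 and 0.18 for NOTCH2, at the 22.2, 20.1 and 29.6 percentiles, against a median of 0.25 over all tested genes. NOTCH1, NOTCH3 and MAML2 thus varied more between replicates than most genes.

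Patterns most like each member were sought among 9847 protein-coding genes, by the root mean square difference of centred log2 CPM over the 9 libraries, where a smaller value means a closer pattern. For SHQ1 the closest were SUPT16H, a subunit of the histone chaperone FACT (0.081), and PAFAH2, a phospholipase (0.083). For NOTCH1 they were NAT8L (0.16) and AEBP1 (0.16), for DTX1 the RNA-modifying enzymes PUS1 (0.079) and TRMT61A (0.085), and for HES1 the lamin gene LMNB1 (0.043) and the deacetylase gene HDAC3 (0.048). MAML1 was closest to TBL1X, a corepressor component (0.041), and TSC22D4 (0.047). NOTCH2 was closest to DIP2A (0.058) and NID2 (0.060), NOTCH3 to IQSEC1 (0.14) and HIVEP3 (0.15), RBPJ to OTUD3 (0.038) and DHX35 (0.039), and MAML2 to IL6R (0.40) and GPA33 (0.41). Among the members themselves, NOTCH2 and MAML1 were the closest pair (0.15). NOTCH1 and DTX1 were each other's closest member at 0.2951, more distant than the closest genes given above. A gene with no change at all would lie at 0.2909 from DTX1, so NOTCH1 was no closer to DTX1 than a flat gene. Such a flat gene would lie at 0.44 from NOTCH1, 0.127 from HES1 and 0.073 from RBPJ. These values describe 9 libraries that share the same depth and scaling, and the contrast between groups is part of them.

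Of 79 other genes of the pathway that were listed by role, 76 were measured and 56 tested. IL7R rose and no gene was called lower (edgeR), 20 had an unadjusted p under 0.05 (17.8% over all genes, against which the counts per list below are also to be read), and the median log2 fold change was -0.07 against -0.03 over all genes tested. Of the ligands, DLL1 was tested and had 0.07 to 0.54 CPM (log2 fold change -0.19, adjusted p 0.898, or 0.105 without scrambled replicate 1), and the other 4 did not pass the filter. NOTCH4, the remaining receptor, had a log2 fold change of -0.84 (adjusted p 0.31), with all 6 siRNA libraries below all scrambled ones, as in 3.65% of all genes tested. The gap for NOTCH4 was slight, since the highest siRNA library was at 0.6605 CPM and the lowest scrambled library at 0.6609 CPM. NOTCH2NLA was at -0.56 (adjusted p 0.255), or -0.305 without scrambled replicate 1. The medians per list below include that library and were not computed without it.

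Among genes of receptor maturation and cleavage, 13 of 14 were tested and 0 called (edgeR; 5 at an unadjusted p under 0.05), with a median of 0.04. They ran from the glycosyltransferase gene LFNG (-0.89), which tunes ligand choice, to POGLUT1, which glucosylates the receptor (0.37, or 0.23 without scrambled replicate 1). Of 7 genes of endocytosis and turnover, all were tested and 0 called (3 unadjusted), from NUMBL, a Numb-like adaptor (-0.99, adjusted p 0.0753), to the cyclin gene CCNC (0.33), with a median of 0.02. CCNC was at 97.8 CPM in scrambled replicate 1 and at 151 to 188 CPM in the other 8 libraries, and its value without that library was 0.12. That of NUMBL was -0.74. Of 4 genes of ligand endocytosis, 2 were tested and 0 called (0 unadjusted), the ubiquitin ligase genes MIB1 (0.16, or 0.055 without scrambled replicate 1) and MIB2 (-0.31).

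Among the other nuclear cofactors, none passed the test. Of 6 other coactivators 0 were called (edgeR; 3 unadjusted), with a median of -0.25, from EP300, a histone acetyltransferase (-0.80), to SNW1 (0.40, or 0.25 without scrambled replicate 1). Of 8 tested corepressors and other inhibitors of RBPJ 0 were called (2 unadjusted), with a median of -0.03, and CIR1 had the highest value (0.26, or 0.16 without scrambled replicate 1). SHARPIN and KYAT1, which stood in the same list, are not known as RBPJ corepressors and were left out of this count after the data were seen. With them 10 were tested, 0 called, and the median was -0.08. EP300 was at 198 CPM in scrambled replicate 1 and at 55.4 to 94.6 CPM in the other 8 libraries. Without that library its log2 fold change was -0.24. The part of the library's multimapping share in this level was not tested.

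Of 8 other HES and HEY genes 0 passed the filter. Of 4 other Deltex genes, 3 were tested and 0 called (edgeR; 1 unadjusted), with a median of -0.21, from DTX2 (-0.77) to DTX3L (0.10, or 0.15 without scrambled replicate 1). DTX2 was at 15.2 CPM in scrambled replicate 1 and at 3.89 to 8.26 CPM in the other 8 libraries, and its value without that library was -0.36. The same list held 4 TLE corepressor genes, of which 2 were tested and 0 called (1 unadjusted). No HES4 read was counted in any library, and HES5 was at 0.034 CPM in scrambled replicate 2 and at 0 in the others, so of HES1, HES4 and HES5, which carry TGGGAA in the stretches shown, HES1 alone exceeded 1 CPM. Of 12 other NOTCH targets known in T cells or T-ALL, 10 were tested and 1 was higher, with a median of 0.06. This was IL7R, the interleukin-7 receptor of developing T cells, at 9.14, 8.80 and 7.23 CPM with scrambled siRNA, 23.6, 21.3 and 26.2 CPM with s46, and 20.8, 24.0 and 30.3 CPM with s47. The groups did not overlap, and the log2 fold change was 1.54 ± 0.16 (SE; edgeR adjusted p 0.000842). The lowest value in the list belonged to PTCRA, which encodes a chain of the pre-T-cell receptor (-1.15, edgeR adjusted p 0.352), whose level was 0 to 0.53 CPM. For PTCRA the value was -2.15 with s46 and -0.16 with s47, neither of which was called. SHQ1 and IL7R were thus the only genes called among the 9 tested members and the 56 tested other pathway genes.

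**Figure D4:**
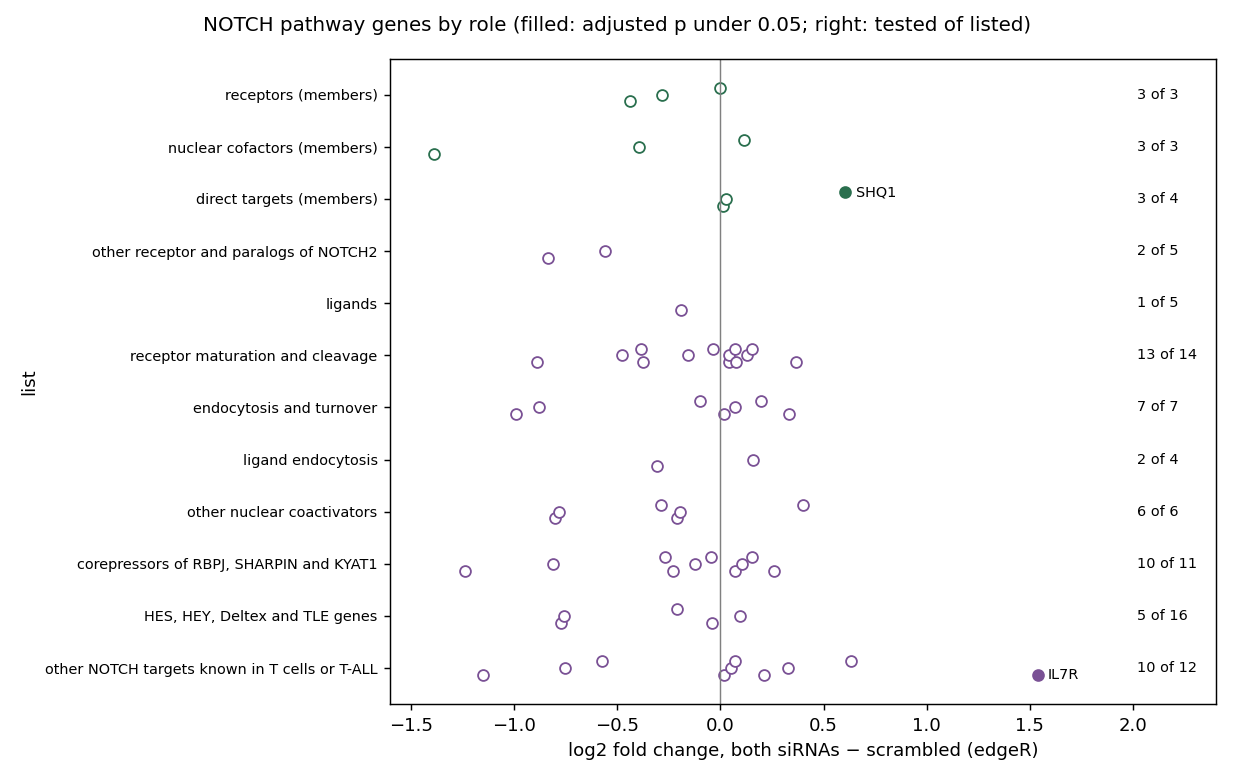
Log2 fold change, averaged over both siRNAs, against scrambled for each tested gene of the 12 role lists, with the number tested of those listed at the right. Green points are the members and purple points the other pathway genes; filled points, SHQ1 and IL7R, passed an edgeR adjusted p of 0.05.

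The siRNAs were compared with each other directly, and 0 of the 9 members differed (edgeR; 0% of all genes called, 0 members at an unadjusted p under 0.05, as 0.703% of all genes were, and 0 by DESeq2 and by limma-voom). The differences, s46 minus s47, ran from -0.23 for NOTCH3 (95% interval -1.17 to 0.71) to 0.23 for MAML2 (-0.93 to 1.40). The intervals were narrower for HES1 (-0.35 to 0.22), RBPJ (-0.18 to 0.27) and NOTCH2 (-0.30 to 0.31).

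The words GCAGTAC and CAGTACA were looked for in the 3′ UTRs because genes called higher in these libraries often carry them, a property seen in the data beforehand. Of the 63 genes called higher that have an annotated 3′ UTR, 55.6% carried either word, against 12.3% of all 11050 tested genes with one. None of the 9 tested members carried either. SHQ1 was among the genes called higher that lack these words in the annotated 3′ UTR. As the words were picked from these same libraries, the percentages are not an independent test. What the lack of the words means for SHQ1 was not tested. Without untreated cells, a higher level of SHQ1 with the TLX1 siRNAs cannot be told apart from a lower level with scrambled siRNA.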

How the data were processed

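Total RNA of 9 ALL-SIL samples was depleted of ribosomal RNA and made into stranded libraries, per the labels' protocols. For each library the authors deposited read counts per gene with no normalization, on GRCh38 according to the submitters' processing notes. The names of aligner, counter and annotation were not given in the sources used here. The sense column was used. Lines that name no gene were left out: unmapped (4.52% to 6.70% of reads), multimapping (6.36% to 14.5%), no feature (23.8% to 36.8%) and ambiguous (2.12% to 4.45%), which can lower the counts of genes that have near-identical copies. Of 58096 IDs, 57492 matched GENCODE 29 when the version number was ignored and 604 did not. Genes were kept by filterByExpr (minimum count 10), scaled by TMM and tested in 1 fit of all 9 libraries by the robust quasi-likelihood F test of edgeR 4.0.16 (R 4.3.3). Benjamini-Hochberg adjustment of p-values ran over 16072 genes, with a threshold of 0.05. SEs were derived from the F statistics. CPM are TMM-scaled, and RPKM use the summed exon length of GENCODE 29. Centred log2 CPM used a prior count of 1. The edgeR fit and its contrast of both siRNAs with scrambled were also run on simulated counts. These held no replicate effect and no outlying library, so they do not cover such features of the real data.

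Each siRNA, their mean and their difference were the contrasts. The members, lists and words were chosen with earlier results of these data known. Named genes are the 10 members, TLX1, up to 4 called genes and the highest and lowest log2 fold change per list, and for each tested member the 2 protein-coding genes with the closest pattern, at a mean log2 CPM of at least 1. A gene taken by this rule is not reported here. Genes named beyond the rule are said to be so. Alternatives were other scalings, no filter, a minimum count of 50, unstranded counts, a replicate block, leaving out each library, limma-voom (limma 3.58.1) and DESeq2 1.42.0. For each siRNA alone and for their difference, a fit of only the groups compared was also run. Promoter sequences are from RefSeq and were read in Python 3.11.15. DTX1 was not among them.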

Additional observations from a re-analysis of the deposited data

How the results depend on the processing

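Of the 9 tested members, 1 was called for the mean of both siRNAs. That count was 0 with upper-quartile scaling, 0 with library totals, 2 with no filter (MAML2 and SHQ1), 2 with DESeq2 (NOTCH2 and SHQ1) and 0 to 4 with 1 library left out; the 4, without scrambled replicate 2, were NOTCH2, MAML1, MAML2 and SHQ1. Over all genes, that contrast called 2.8% with no filter, 2.84% with DESeq2 and 10.1% without scrambled replicate 2. For s46 the member count was 0, and also 0 in a fit of only s46 and scrambled (6 of 15486 genes called). It was 1 under no filter (384 of 31261 genes called) and 1 with DESeq2 (1.24%). With 1 library left out it was 0 to 1, the 1 being NOTCH2 without scrambled replicate 2 (225 of 16397 genes called). For s47 the member count was 0, and also 0 in a fit of only s47 and scrambled (8 of 15531 genes called). It was 2 under no filter (432 of 31261 genes called), 1 with DESeq2 (1.27%) and 1 with the replicate block (125 of 16072). With 1 library left out it was 0 to 1, again NOTCH2 without scrambled replicate 2 (275 of 16397). Between s46 and s47 the member count was 0 under every alternative run, and so was the count of opposite-strand calls at member loci. Of the other pathway genes, 1 was called, 6 with no filter, 3 with DESeq2 and 1 to 16 with 1 library left out. The 16 were found without scrambled replicate 2, when 5 were higher and 11 lower, and calls over all genes rose from 91 to 1650. The cause was not tested. Over all members, 24 of 161 log2 fold changes for the mean of both siRNAs changed sign under an alternative, all in NOTCH1, NOTCH3, HES1 and DTX1, and none of these was called.

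With the replicate block, SHQ1 was called for the mean of both siRNAs (log2 fold change 0.60, edgeR adjusted p 0.0169). It was the member called for s47 (0.61, adjusted p 0.0365), but was not called for s46 (0.58, adjusted p 0.0589). Over all 16072 genes, the block called 222 for the mean (91 in the main fit), 74 for s46 and 125 for s47. Libraries with the same number correlated in their deviations from group means at r = -0.023 to 0.43 (9 pairs, median 0.30), and those with different numbers at -0.31 to 0.17 (18 pairs, median -0.16). Of the same-numbered pairs, 8 of 9 exceeded 0.1, and 9 of 9 libraries correlated best with their own number in another group. This is a hint from the data that the numbers pair the libraries, which the labels do not state. The main fit left the numbers out, so its p-values do not allow for such pairing. Depth limits MAML2, at about 1 CPM, and NRARP, which could not be tested, and NOTCH1 and NOTCH3 are limited by the spread between replicates.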
